A study of Mus musculus with 4 samples.

Results

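The EGR, NR4A and KLF factors described here are 10 genes of inducible transcription factors: Egr1, Egr2, Egr3, Egr4, Nr4a1, Nr4a2, Nr4a3, Klf2, Klf4 and Klf6. They were chosen by name, and each matched 1 identifier among the 54532 genes of the table. RNA with poly(A) tails came from gonadotropes, the pituitary cells that secrete the gonadotropins, sorted from male mice of mixed strain aged 10 to 12 weeks. The 4 libraries are 2 from mice labelled control and 2 from mice labelled GATA2 cKO, a conditional knockout of the zinc-finger factor gene Gata2 that the study's title calls gonadotrope-specific. The series' design text speaks of whole pituitaries instead, and the sample labels were followed. Age, sex and strain labels are the same in both groups. The sources used here name neither the Cre driver, nor the alleles of the controls, nor the marker used for sorting, nor whether a library came from 1 mouse or a pool. The p-values therefore rest on a spread between libraries that may be technical. Replicates 1 and 2 of a group are given in that order throughout.

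Gonadotropin-releasing hormone (GnRH) acts on gonadotropes through a Gq-coupled receptor and mitogen-activated protein kinases, and EGR and NR4A genes are among the immediate-early genes that such signals switch on without new protein synthesis. EGR proteins bind GC-rich DNA through zinc fingers, and Egr1, with the nuclear receptor Nr5a1 and the homeodomain protein Pitx1, is the main activator of Lhb, the gene of the luteinizing hormone beta subunit. NR4A proteins are orphan nuclear receptors that can bind DNA alone. Krüppel-like factors (KLF) bind GC-rich or CACCC elements through zinc fingers. All 3 families are also known to be induced when tissue is dissociated, and both groups were sorted.

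Total estimated counts were 10646909 to 21135301 per library, with control replicate 1 the shallowest. Pearson's r of log2 CPM (counts of a gene per 1000000 of the library, scaled by TMM factors) across genes was 0.841 to 0.928 between libraries, and the lowest values were those of control replicate 1. Gata2 itself had 537 and 526 CPM in control and 221 and 214 CPM in cKO libraries, which was 41.0% of the control level (edgeR adjusted p = 0.0473). Gonadotrope markers were all present, with summed levels of 15064 and 13606 CPM in controls and 6660 and 7934 in cKO. The 10 factors had 353 to 58184 counts in each library, and all passed the filter on low counts. No other annotated gene overlaps any of the 10, and 9 had whole counts in every library, so few of their reads can have been divided with another gene. The exception was Klf4, at 494.5 counts in cKO replicate 2.

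The promoters of the members are shown first, because cyclic AMP and serum response elements are the usual routes by which such genes are induced. RefSeq windows of 300 bases around a start (build GRCm38.p6, the same assembly as mm10) were found for 8 of the 10 genes, and Egr1 and Egr3 had no entry. The sequences below give the bases before the start, stopping at the first annotated exon, for the most abundant NR4A gene, for Egr2 and Egr4, and for Klf6, the factor with the largest difference between groups. Capitals mark matches to TGACG, the half-site of the cyclic AMP response element, to the EGR motif GCGNGGGCG, to CCAAT, and to the CArG box of serum response factor, each on either strand.
Nr4a1 (chr15:101266596-101266845, plus strand): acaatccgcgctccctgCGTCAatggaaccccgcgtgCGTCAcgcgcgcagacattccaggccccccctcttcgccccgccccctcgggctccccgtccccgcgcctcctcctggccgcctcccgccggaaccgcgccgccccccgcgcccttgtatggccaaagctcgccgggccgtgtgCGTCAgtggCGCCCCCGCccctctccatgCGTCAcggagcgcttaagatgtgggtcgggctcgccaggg
Egr2 (chr10:67537619-67537868, plus strand): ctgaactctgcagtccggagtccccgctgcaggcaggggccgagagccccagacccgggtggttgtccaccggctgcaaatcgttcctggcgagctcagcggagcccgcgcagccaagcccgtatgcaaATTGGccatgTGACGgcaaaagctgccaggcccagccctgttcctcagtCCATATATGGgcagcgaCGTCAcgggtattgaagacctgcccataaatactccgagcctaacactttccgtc
Egr4 (chr6:85513590-85513839, minus strand): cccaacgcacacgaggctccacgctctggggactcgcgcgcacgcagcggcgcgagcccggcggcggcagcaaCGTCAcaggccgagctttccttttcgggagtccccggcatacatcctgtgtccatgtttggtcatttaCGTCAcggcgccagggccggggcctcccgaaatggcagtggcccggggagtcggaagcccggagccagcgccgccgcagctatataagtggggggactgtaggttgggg
Klf6 (chr13:5861239-5861481, plus strand): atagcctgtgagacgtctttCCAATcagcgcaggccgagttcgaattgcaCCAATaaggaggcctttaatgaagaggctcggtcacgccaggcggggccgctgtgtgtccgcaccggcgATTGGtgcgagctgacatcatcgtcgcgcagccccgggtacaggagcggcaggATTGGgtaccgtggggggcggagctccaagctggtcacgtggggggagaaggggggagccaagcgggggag

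The half-site TGACG, which is part of the full element TGACGTCA, was found in at least 1 window of 7 of the 8 genes, against 20.8% of the 32851 windows of all genes. Nr4a1, Nr4a2 and Nr4a3 each had 4 copies, Egr4 had 2, and Klf2 and Klf4 had 1 each. Klf6 had none and instead held 4 copies of CCAAT, a motif present in 37.4% of all windows. The full element was in none of the 8 genes and in 1.79% of all windows. For the CArG box only exact matches were counted, with A or T at every base between CC and GG. Near matches were not searched, and an exact CArG box was found in Egr2 alone, against 1.63% of windows. In the Egr2 sequence shown, from the third of its 5 listed starts, it reads CCATATATGG and spans bases -72 to -63 from the start, between 2 TGACG half-sites. The EGR motif was in the windows of Nr4a1, Nr4a2, Klf2 and Klf4, against 5.55% of windows. AGATAA, a form of the GATA motif, was in none of the 8 genes and in 11.2% of windows, and the NR4A motif AAAGGTCA was in none and in 1.51%. Egr2 has 5 windows and so more chances of a match than the other genes. These are matches of letters in short windows, with no measurement of binding.

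Egr1 and Nr4a1 were by far the most abundant of the 10 in every library. Levels were compared between genes per length, as TPM (counts per length, scaled to a sum of 1000000) computed from the counts and the length of each gene's merged exons. In the controls Egr1 stood at 2037 ± 380 TPM and Nr4a1 at 1062 ± 203 (SD, n = 2), followed by Nr4a2 at 168 ± 63.9, Klf6 at 106 ± 12.8 and Egr4 at 81.7 ± 24.2. Klf2 stood at 62.6 ± 6.55 TPM, Nr4a3 at 55.0 ± 3.40, Egr2 at 54.1 ± 4.07, Klf4 at 30.7 ± 6.11 and Egr3 at 26.0 ± 5.42. The control libraries overlapped between Klf6 and Egr4, between Egr4 and Klf2, between Nr4a3 and Egr2, and between Klf4 and Egr3, so the order within these pairs is not resolved. The highest mean was 78.4 times the lowest in the controls and 58.9 times in cKO. In cKO the order began with Egr1 at 1582 ± 181 TPM and Nr4a1 at 1051 ± 61.3, and Klf6 came next at 180 ± 13.2, above Nr4a2 at 124 ± 18.9. Klf4 was the lowest there, at 26.9 ± 4.71.

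**Figure D1:**
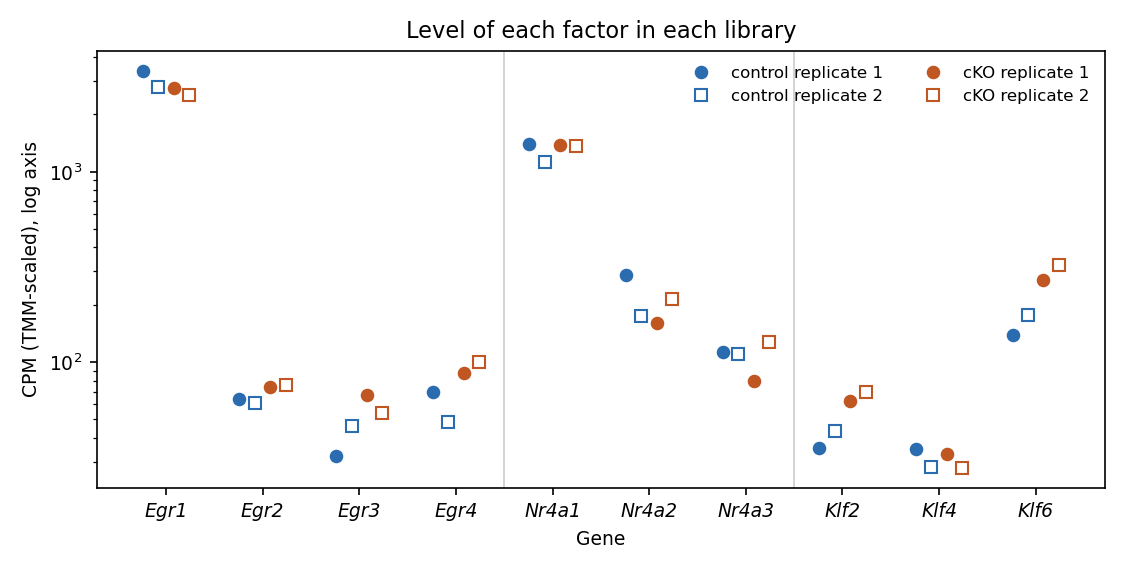
Level of each factor in each library, in CPM scaled by TMM factors on a log axis. Blue marks are control libraries, orange marks cKO libraries, circles replicate 1 and squares replicate 2. Egr1 and Nr4a1 lie above the other 8 genes in all 4 libraries, and Klf6 is higher in both cKO libraries (270 and 322 CPM) than in both controls (139 and 176).

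None of the 10 factors passed the test of cKO against control. The test was edgeR's quasi-likelihood test with Benjamini-Hochberg adjustment over all 17349 genes tested, of which 10 (0.0576%) had an adjusted p under 0.05. By edgeR 3 of the factors, Klf6, Klf2 and Egr4, had an unadjusted p under 0.05, all with higher levels in cKO, against 3.15% of all genes tested. DESeq2 called 2 of the factors, Klf6 and Klf2, against 5.44% of all genes, and limma-voom called 1, Klf6, against 1.48%. The log2 fold change, cKO minus control throughout, was above 0 for 6 of the 10, against 52.4% of all genes. Its median was 0.19 over the factors and 0.03 over all genes tested. Without control replicate 2 this order turned round, with 0.11 over the factors and 0.25 over all genes. Both cKO libraries lay above both controls for 5 factors (Egr2, Egr3, Egr4, Klf2 and Klf6), against 19.7% of all genes tested. Both lay below for Egr1 alone, against 19.3%. Among the 6344 genes at least as abundant as Klf4, the lowest of the factors by log2 CPM, these shares were 24.4% and 20.6%.

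**Figure D2:**
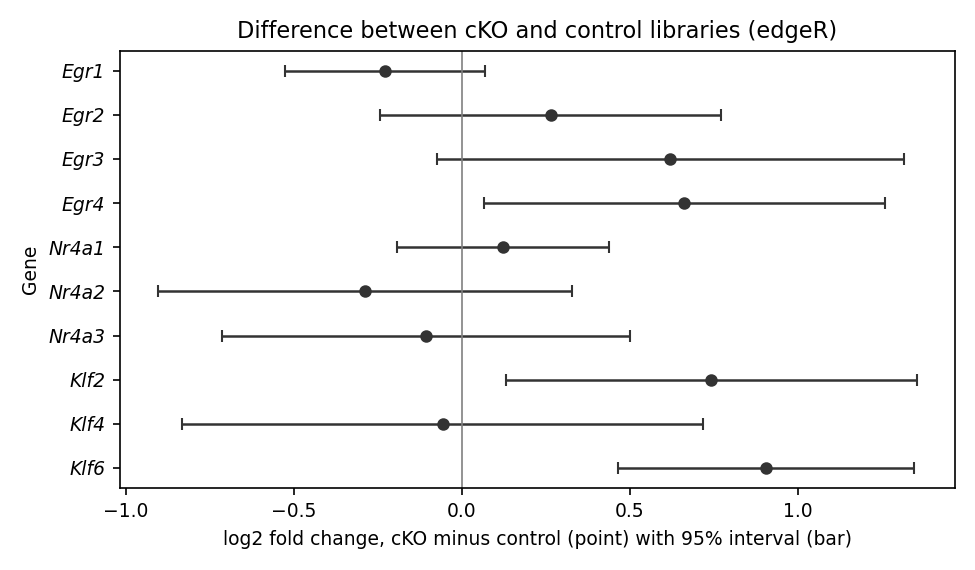
Fold change of each factor on a log2 scale, cKO minus control (points, edgeR over 4 libraries), with its 95% interval (bars, from the fit's t distribution). The intervals of Egr4, Klf2 and Klf6 lie above 0, before adjustment over the 17349 genes, and the other 7 include 0.

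Of the EGR genes, Egr1 was lower and the other 3 were higher in the cKO libraries. Egr1 (ENSMUSG00000038418.7, mm10 chromosome 18, 34859823 to 34864984) had 3400 and 2781 CPM in control and 2752 and 2522 CPM in cKO libraries. Control replicate 1 was the highest, while control replicate 2 and cKO replicate 1 were nearly equal, so the groups were separated by a narrow gap. On the log2 scale the difference was -0.23 (SE 0.13), with an adjusted p of 0.804 by edgeR, and its 95% interval ran from 69.4% to 105% of the control level. The share of its control level that Gata2 kept, 41.0%, lies outside this interval. Without control replicate 2 the Egr1 value was -0.36 and was called (edgeR adjusted p = 0.0475), in a fit that called 3.5% of all genes and whose median over all genes had moved to 0.25. Without control replicate 1 it was -0.08.

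Egr2, known as Krox20 and for its part in myelination and hindbrain patterning, had 63.7 and 61.0 CPM in control and 73.6 and 76.2 CPM in cKO libraries. Replicates lay close together in both groups and did not overlap, but the log2 fold change was small, at 0.27 (SE 0.22). Its 95% interval went from 84.5% to 171% of the control level. Egr3, a factor of muscle spindle development, had 32.1 and 46.1 CPM in control and 66.7 and 53.7 CPM in cKO libraries. The gap between control replicate 2 and cKO replicate 2 was smaller than the spread within either group. The log2 fold change of Egr3 was 0.62 (SE 0.30), with an adjusted p of 0.738 by edgeR. It was 0.38 without control replicate 1 and 0.91 without control replicate 2. Egr4 (ENSMUSG00000071341.4, chromosome 6, 85511121 to 85513589) had 69.8 and 48.7 CPM in control and 87.5 and 99.9 CPM in cKO libraries. Both cKO libraries were above control replicate 1, the higher control. Its log2 fold change was 0.66 (SE 0.25), with an unadjusted p of 0.0338 by edgeR and an adjusted p of 0.679. Without control replicate 1 it was 0.94, and without control replicate 2 it was 0.43.

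Because Egr1 dominates its family, the sum of the 4 EGR genes followed it. Egr1 made up 92.8% and 92.4% of the family's TPM in the controls and 88.8% and 87.4% in cKO. Egr4 held 3.98% and 3.38% in the controls and 5.89% and 7.23% in cKO. The family's sum was 2483 and 1914 TPM in the controls and 1926 and 1663 in cKO, so the groups overlapped.

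The 3 NR4A genes did not separate the groups. Nr4a1 (ENSMUSG00000023034.7, chromosome 15, 101254269 to 101274795), also called Nur77 and known in corticotropes as an activator of Pomc, had 1391 and 1130 CPM in control and 1378 and 1368 CPM in cKO libraries. Both cKO libraries lay between the controls. The log2 fold change of 0.12 (SE 0.13) had a 95% interval from 87.5% to 136% of the control level. Nr4a2, or Nurr1, a factor of midbrain dopamine neurons, had 285 and 175 CPM in control and 161 and 216 CPM in cKO libraries. Its controls differed by a factor of 1.63, more than the groups did. Its log2 fold change was -0.29 (SE 0.26), and it was 0.096 without control replicate 1. Nr4a3, or Nor1, had 113 and 110 CPM in control and 79.2 and 128 CPM in cKO libraries. Here the cKO libraries lay on either side of the controls, 1.62-fold apart, and the log2 fold change was -0.11 (SE 0.26). Leaving out cKO replicate 1 gave 0.20 and leaving out cKO replicate 2 gave -0.51. Nr4a1 made up 81.6% to 88.1% of the family's TPM over the 4 libraries.

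Klf6 and Klf2 had the largest differences of the 10, and Klf4 had almost none. Klf6 (ENSMUSG00000000078.7, chromosome 13, 5861482 to 5870394), a widely expressed factor induced by growth signals and injury, had 139 and 176 CPM in control and 270 and 322 CPM in cKO libraries. The lower cKO library was well above the higher control. The log2 fold change was 0.91 (SE 0.19), or 187% of the control level with a 95% interval from 138% to 254%. Klf6 ranked 83 of 17349 genes by p, with an adjusted p of 0.368 by edgeR. DESeq2 gave an adjusted p of 2.56e-06, limma-voom 0.000634 and edgeR without a filter 0.00188, at log2 fold changes of 0.91, 0.88 and 0.90. The fit without a filter called 1.04% of all genes. The fold change hardly differed between these tests, and the call did. Without control replicate 2 the log2 fold change of Klf6 was 1.09 and it was called as well. The median over all genes had moved to 0.25 in that fit. Without control replicate 1 the log2 fold change of Klf6 was 0.74. Of 16 alternative settings, 12 did not call Klf6.

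Klf2 (ENSMUSG00000055148.7, chromosome 8, 72319033 to 72321656), best known from endothelium and quiescent lymphocytes, had 35.2 and 43.5 CPM in control and 62.2 and 69.7 CPM in cKO libraries. The groups did not overlap. It differed by 0.74 on the log2 scale (SE 0.26), with an adjusted p of 0.649 by edgeR and 0.0146 by DESeq2. Klf4, a factor of epithelia, endothelium and pluripotent cells, had 35.1 and 28.2 CPM in control and 33.1 and 27.8 CPM in cKO libraries. Replicate 1 was the higher library in both groups, and the log2 fold change was -0.06 (SE 0.33) with a 95% interval from 56.2% to 165% of the control level. Klf4 had 0.10 without control replicate 1 and 0.05 without cKO replicate 2. The 3 genes together gave 189 and 208 TPM in the controls and 295 and 311 in cKO.

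Markers of endothelium, leukocytes, fibroblasts and red cells stood at low levels, while Pomc, Gh and Prl, of other endocrine cells of the pituitary, were far above them in every library. Pomc had 7161 and 9813 CPM in controls and 6032 and 7145 in cKO. In CPM, which takes no account of gene length, Pomc was above the gonadotrope gene Lhb in every library (5143 and 4099 CPM in controls, 2069 and 2245 in cKO). Per length, Lhb was above Pomc in control replicate 1 (23067 against 16520 TPM). Pomc was above Lhb per length in control replicate 2 (21226 against 17237 TPM) and in both cKO libraries. Summed over 7 endothelial markers, levels were 29.1 and 31.7 CPM in controls and 19.0 and 10.1 in cKO, and Emcn and Cldn5 had no count in any library. The 7 macrophage and leukocyte markers summed to 24.8 and 12.0 CPM in controls and 3.15 and 14.2 in cKO. For the 6 fibroblast and pericyte markers the sums were 0.091 and 16.4 CPM in controls and 18.6 and 12.7 in cKO. The 5 erythroid markers summed to 36.9 and 8.79 CPM in controls and 16.1 and 1.85 in cKO. The 5 corticotrope and melanotrope markers, Pomc among them, summed to 7528 and 10201 CPM in controls and 6338 and 7507 in cKO. Somatotrope markers gave 1143 and 2395 CPM in controls and 2166 and 399 in cKO, and thyrotrope markers 77.2 and 68.7 and then 136 and 92.3. Dio2 made up most of the thyrotrope sum, and Tshb, the hormone gene of these cells, was lower in both cKO libraries (22.3 and 13.7 CPM in controls, 7.33 and 7.08 in cKO). The 3 lactotrope markers summed to 339 and 609 CPM in controls and 1316 and 1337 in cKO, and the 3 stem cell markers to 37.1 and 46.1 and to 81.7 and 95.1. The mitochondrially encoded share of counts was 5.42% and 6.15% in the controls and 7.76% and 8.98% in cKO. The lactotrope, thyrotrope and stem cell sums and the mitochondrial share were higher in both cKO libraries. The same was true of Egr2, Egr3, Egr4, Klf2 and Klf6, and of 19.7% of all genes tested. Among the stem cell markers S100b went the other way, with counts in control replicate 2 alone. The part of any of these markers in the differences of the factors was not tested. In RNA from sorted populations, a change in the mix of cells and a change of RNA per cell cannot be told apart.

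Ratios within a library compare the members without any scaling between libraries. The pairs and their order were chosen after their values were seen, and the groups did not overlap in 29 of the 45 pairs that the 10 factors can form. These 45 pairs reuse the same 10 genes and are not separate observations. The share among pairs of other genes was not measured, so the count is not a trait of these factors. The log2 ratio of Klf6 to Egr1, per length, was -4.58 and -3.95 in the controls and -3.32 and -2.94 in cKO, a difference of 1.13 between the means. For Klf6 to Klf4 the ratio itself was 2.76 and 4.35 in the controls and 5.67 and 8.06 in cKO. Egr4 to Egr1 gave 0.0429 and 0.0366 in the controls and 0.0663 and 0.0827 in cKO. Nr4a1 to Egr1 gave 0.523 and 0.519 in the controls and 0.640 and 0.693 in cKO. The ratio of Egr1 to its target Lhb was 0.0999 and 0.103 in the controls and 0.201 and 0.170 in cKO, a mean log2 difference of 0.87. The groups did not overlap for these 5 ratios, nor for Klf2 to Klf4. With 2 libraries a group a two-sided exact permutation test cannot give a p below 0.333, which any ratio without overlap reaches, so the values are a description.

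**Figure D3:**
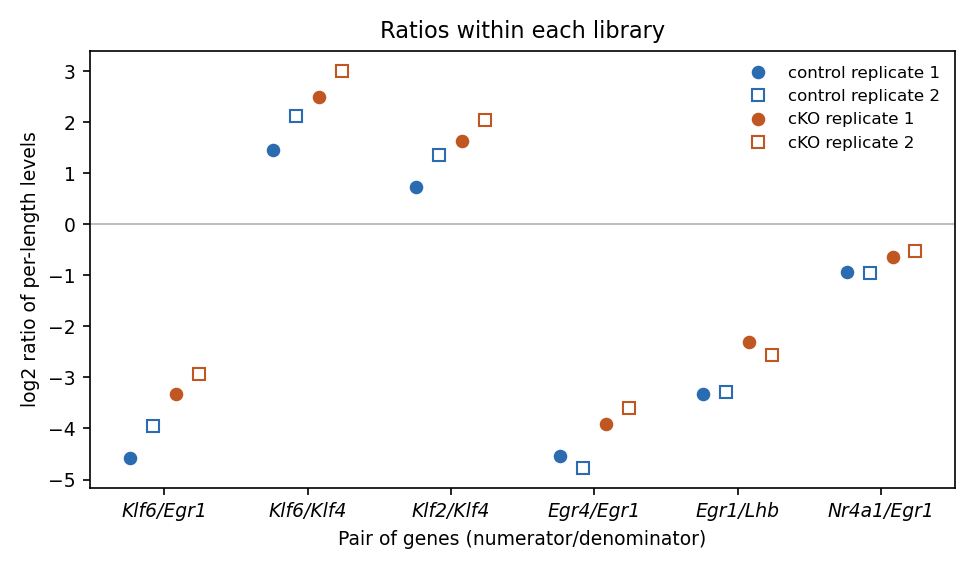
Log2 ratio of per-length levels for 6 pairs of genes in each library. Blue marks are controls and orange marks cKO, with circles for replicate 1 and squares for replicate 2. The cKO libraries lie above the controls in each pair, and Egr1 to Lhb goes from 0.0999 and 0.103 to 0.201 and 0.170 before taking logs.

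Partners of Egr1 and gonadotropin genes were measured next, and their difference from Egr1 was compared only for Lhb, as the ratio above. Of 7 partners and targets (Lhb, Cga, Gnrhr, Fshb, Nr5a1, Pitx1 and Ctnnb1) all 7 had a log2 fold change below 0, with a median of -0.68, and 1 passed the test, Fshb. Both cKO libraries were below both controls in 6 of the 7, against 19.3% of all genes, and Nr5a1 overlapped (277 and 397 CPM in controls, 275 and 372 in cKO). Lhb, Fshb, Cga, Gnrhr and Nr5a1 are also the gonadotrope markers summed above, so the 2 lists are not separate evidence. Fshb, for the follicle-stimulating hormone beta subunit, had -2.01 (SE 0.18, edgeR adjusted p = 0.0381). Pitx1 had 725 and 547 CPM in control and 209 and 219 CPM in cKO libraries, a difference of -1.57 on the log2 scale (SE 0.17), with an adjusted p of 0.0575 by edgeR. Lhb, named after its values were seen, had 5143 and 4099 CPM in control and 2069 and 2245 CPM in cKO libraries.

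The EGR corepressors Nab1 and Nab2, which bind EGR proteins and limit their activity, were both higher in cKO, and neither passed. Nab2, itself a target of EGR proteins, had 67.8 and 65.3 CPM in control and 153 and 133 CPM in cKO libraries. The replicates were close and the groups far apart, and the log2 fold change was 1.10 (SE 0.20), with an adjusted p of 0.242 by edgeR. Nab1 had 0.31 (SE 0.24). Wt1, a related zinc-finger gene on the same list, had no count in any library.

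Other KLF genes were measured in the same fit. Of the 13 tested 9 had a log2 fold change above 0, against 52.4% of all genes, the median was 0.34, and 0 passed. In 7 of them both cKO libraries were above both controls and in 1 both were below, against 19.7% and 19.3% of all genes tested. The 1 below was Klf16, at 45.5 and 32.9 CPM in controls and 21.3 and 23.5 in cKO (log2 fold change -0.80, SE 0.34), named after its values were seen. Klf9, a glucocorticoid-inducible factor, had 99.9 and 133 CPM in control and 222 and 182 CPM in cKO libraries, a log2 fold change of 0.79 (SE 0.21). Klf10, a TGF-beta-inducible factor, had 62.1 and 65.1 CPM in control and 96.7 and 122 CPM in cKO libraries, a log2 fold change of 0.78 (SE 0.22). Both stood near Klf2 in the size of the difference.

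Of the upstream regulators 0 passed. The counts of higher genes below come from short lists and stand beside 52.4% of all genes tested. Of 6 serum response factor and ETS genes 3 were higher, with a median of 0.06, and Elk1 had 0.70 (SE 0.29) and Srf 0.37 (SE 0.17). In the CREB family and its coactivators 5 of 6 were higher, with a median of 0.20, and Crtc2, a cyclic AMP-regulated coactivator, had 0.57 (SE 0.18) and Atf1 0.48 (SE 0.35). Of 5 tested genes of the ERK5 and MEF2 pathway, which induces Klf2, Klf4 and Nr4a1, 3 were higher, with a median of 0.002. Mef2d had 0.26 (SE 0.15) and Mef2c -2.23 (SE 1.26). Mef2c was low and overlapped between groups, with 22.4 and 2.72 CPM in controls and 4.37 and 0.955 in cKO. The 3 RXR genes, partners of Nr4a1 and Nr4a2, were all above 0, with Rxra at 0.23 (SE 0.27) and Rxrg at 1.03 (SE 1.26). Rxrg was low and overlapped as well, with 5.64 and 1.91 CPM in controls and 2.12 and 13.3 in cKO.

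Other immediate-early and dissociation-response genes were measured in the same libraries. Of 26 tested 22 had a log2 fold change above 0, against 52.4% of all genes, with a median of 0.19, beside 0.19 for the 10 factors, and 0 passed. In 14 both cKO libraries were above both controls, and in 2 both were below, where all genes tested gave 19.7% and 19.3%. Their summed level was 15645 and 19713 CPM in controls and 18535 and 18659 in cKO, so the sums overlapped. Gadd45g, a stress-inducible growth arrest gene, had 0.76 (SE 0.20). Dnajb1, a heat-shock cochaperone, had 1235 and 1580 CPM in control and 886 and 922 CPM in cKO libraries, a log2 fold change of -0.64 (SE 0.15). The part of dissociation and sorting in the levels of the factors was not tested.

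**Figure D4:**
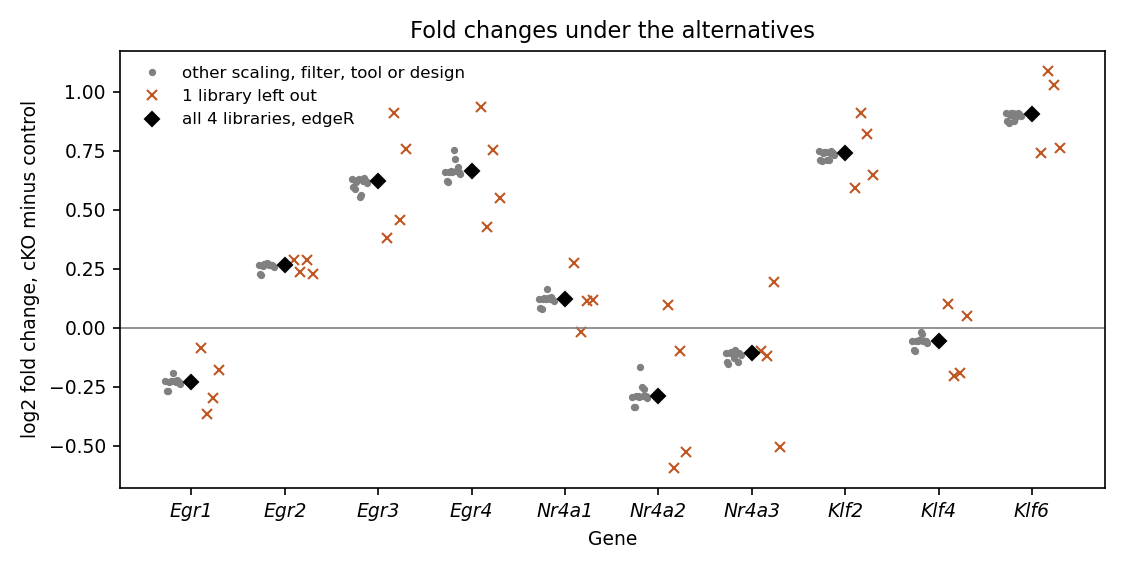
Log2 fold change of each factor, cKO minus control, with all 4 libraries in edgeR (diamonds), under other scalings, filters, tools or designs (grey points) and with 1 library left out (crosses). Klf6 stays between 0.74 and 1.09 and Egr1 between -0.36 and -0.08, while Nr4a1, Nr4a2, Nr4a3 and Klf4 cross 0 when 1 library is left out.

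By the likeness rule, the genes nearest to a member were those with the smallest distance between centred log2 CPM values over the 4 libraries, among 6225 genes outside the list whose average log2 CPM was 5 or more. Nearest to Egr1 were Brk1 (distance 0.026), Nup85 (0.033) and Vps35l (0.043). Nearest to Klf6 were Ell (0.110), mt-Nd6 (0.120) and Malat1 (0.136). With 4 values a gene and 6225 candidates, close neighbours are likely for any gene, and shared regulation was not tested.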

How the data were processed

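Sorted gonadotropes of 2 control and 2 Gata2 cKO libraries were compared. The submitters' processing notes name STAR 2.5.1b, featureCounts 1.5.0-p1 and the mm10 build. Strand setting, annotation release and the handling of multi-mapping reads: not given in the sources used here. Values in the deposited table are estimated counts without scaling, of which 4.5% were not whole numbers.

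Names, positions and exon lengths came from GENCODE M21 (same build), which matched 54495 of 54532 identifiers. Counts were rounded, filtered with filterByExpr (minimum count 10, minimum total 15), scaled with TMM and tested with edgeR 4.0.16 (R 4.3.3) by its quasi-likelihood F-test, two-sided, with group as the only term and adjusted p under 0.05. SE is the log2 fold change divided by the square root of F. Log2 CPM used a prior of 0.5 CPM. The script was tested on simulated data. Motifs were searched on both strands of RefSeq promoter windows (250 bases before and 50 after a start).

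The members, lists and rules were chosen with earlier results of these data known. Named genes were the 10 members, Gata2, and from each of 8 context lists the 2 tested genes with the smallest p. Alternatives used DESeq2 1.42.0, limma 3.58.1, other scalings and filters, the replicate block, and 1 library left out. The labels do not say whether the numbers in the titles pair libraries, and they name no shared animal or batch. The correlation of deviations between control replicate 1 and cKO replicate 1 was -0.011, which cannot exclude pairing with 2 libraries a group.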

Additional observations from a re-analysis of the deposited data

How the results depend on the processing

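The 10 genes called in the whole table became 22 at adjusted p under 0.10, 253 without a filter (128 higher), 943 by DESeq2 and 256 by limma-voom (136 higher), 3 under a filter of 1 CPM in 2 libraries, 47 with the newer edgeR form, 26 with robust=TRUE, and 66 to 681 with 1 library left out (681 without control replicate 2, of which 537 were higher). The cause was not tested. Where 1 library remains in a group, its variation is taken from the other group. Over the 10 factors and 16 alternatives, 149 of 160 values kept direction and side of the threshold, 6 became calls and 5 changed sign. The sign changes came with 1 library left out, where the log2 fold change ranged from -0.016 to 0.27 for Nr4a1, -0.59 to 0.096 for Nr4a2, -0.51 to 0.20 for Nr4a3 and -0.20 to 0.10 for Klf4. The median of the factors ranged from 0.11 to 0.28 with 1 library left out. The replicate block gave 7 calls in the table and 0 among the factors, with a median of 0.20, and changed no call of a factor. Leaving out mitochondrially encoded genes was added after seeing the data and gave 11 calls and a median of 0.18. Each factor had 353 counts or more in each library.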
